A study of Mus musculus with 10 samples.

Results

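The genes followed here are the scavenger receptors Msr1, Marco, Cd36, Stab1 and Scarb1, chosen by name. All 5 were found among the 12535 genes of the deposited table. Scavenger receptors are cell-surface proteins that bind modified lipoproteins, polyanions, bacteria and dying cells, and on macrophages most of them carry their ligand into the endosome. Class A receptors (Msr1 and Marco) have a collagen-like stalk and bind acetylated or oxidised lipoprotein, bacteria and particles. Class B receptors (Cd36 and Scarb1) span the membrane at both ends and move lipid across it, with Cd36 taking up long-chain fatty acids and oxidised lipoprotein and binding thrombospondin, and Scarb1 taking cholesteryl esters from high-density lipoprotein. Stab1 encodes stabilin-1, a class H receptor of tissue macrophages and sinusoidal endothelium that clears the matrix protein SPARC and acetylated lipoprotein.

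RNA-seq was done on mouse macrophages sorted as positive for CD45, CD11b and F4/80, surface antigens of leukocytes, myeloid cells and macrophages. Values are FPKM, fragment counts scaled to gene length and library size. The cKO-labelled tumour-associated macrophages (TAM) came from C57/BL6 mice with the genotype label Ahr fl/fl Lys M (n = 3 libraries). There Cre recombinase, expressed from the myeloid lysozyme locus Lyz2, is meant to delete the floxed gene of the aryl hydrocarbon receptor. Control TAM came from C57/BL6 Ahr fl/fl mice (n = 3 libraries). Both TAM groups were taken from pancreatic tumours 14 days after orthotopic implantation of MT4, a single KPC organoid line of pancreatic adenocarcinoma. Resident macrophages came from the pancreas of healthy C57/BL6 WT mice (n = 4 libraries). These mice carry no floxed allele by their label, so tumour and genotype label differ together in any comparison with them. The titles do not say whether each library is a separate animal. The labels used here give no ages.

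Recovered depth was 10311267 to 26450224 reads per library. Nothing in the labels says which of 2 RNA extraction kits was used for which library, and p-values measure the spread between these libraries. The sort markers were present in every group: Adgre1, which encodes F4/80, averaged 497 ± 7.72 FPKM in cKO-labelled TAM, 590 ± 2.78 in control TAM and 706 ± 14.9 in resident libraries. Itgam, which encodes CD11b, averaged 59.7 ± 3.33 in cKO-labelled TAM, 75.9 ± 5.23 in control TAM and 31.4 ± 0.995 in resident libraries, and Ptprc, which encodes CD45, averaged 84.2 ± 2.87 in cKO-labelled TAM, 103 ± 3.18 in control TAM and 69.0 ± 3.31 in resident libraries. Ahr, the targeted gene, averaged 10.4 ± 0.785 FPKM in cKO-labelled TAM, 7.18 ± 0.309 in control TAM and 4.19 ± 0.261 in resident libraries. A gene-level value also counts exons that Cre leaves in place and does not check the deletion, so the group is called by its label.

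All 5 genes lie on the minus strand of GRCm38 and are protein-coding. Marco (ENSMUSG00000026390) spans chromosome 1 from 120474538 to 120505024, Msr1 (ENSMUSG00000025044) chromosome 8 from 39581685 to 39642673, and Stab1 (ENSMUSG00000042286) chromosome 14 from 31139013 to 31168641. Cd36 (ENSMUSG00000002944) and Scarb1 (ENSMUSG00000037936) share chromosome 5, from 17781690 to 17888801 and from 125277087 to 125341094. The libraries carry no strand information, and exons of Stab1 overlap those of the plus-strand gene Nt5dc2 over at most 112 bases. Nt5dc2 averaged 38.3 ± 1.20 FPKM in cKO-labelled TAM, 43.2 ± 2.45 in control TAM and 34.1 ± 3.17 in resident libraries. No other annotated gene shares exonic bases with these receptors.

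Promoters of 3 of the 5 genes were matched in the RefSeq table (build GRCm38.p6), and the 250 bases before the transcription start are shown for these, which include the receptor that differed most between the TAM groups (Marco) and the receptor that differed most from resident libraries (Cd36). Capitals mark GAGGAA, the core bound by the macrophage factor PU.1, on either strand.
Marco, chr1:120505025-120505274, minus strand: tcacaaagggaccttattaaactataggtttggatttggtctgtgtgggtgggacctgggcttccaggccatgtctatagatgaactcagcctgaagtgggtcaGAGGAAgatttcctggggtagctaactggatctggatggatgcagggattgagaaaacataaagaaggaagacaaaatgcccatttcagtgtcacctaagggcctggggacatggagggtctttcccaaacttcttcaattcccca
Stab1, chr14:31168642-31168891, minus strand: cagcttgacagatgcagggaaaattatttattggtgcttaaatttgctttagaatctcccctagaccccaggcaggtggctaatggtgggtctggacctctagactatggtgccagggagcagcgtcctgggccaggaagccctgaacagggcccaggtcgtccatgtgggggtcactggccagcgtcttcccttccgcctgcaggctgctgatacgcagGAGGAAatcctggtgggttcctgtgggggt
Cd36, chr5:17835897-17836146, minus strand: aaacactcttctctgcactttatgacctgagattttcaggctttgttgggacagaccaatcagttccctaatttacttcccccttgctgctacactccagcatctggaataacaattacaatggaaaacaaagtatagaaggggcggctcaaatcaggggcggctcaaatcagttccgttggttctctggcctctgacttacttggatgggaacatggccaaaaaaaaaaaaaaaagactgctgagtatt
The GAGGAA core was present 146 bases before the start in Marco and 30 bases before it in Stab1, and 23.3% of 32851 promoter windows of the same length hold it. GCGTG, the core of the xenobiotic response element bound by the aryl hydrocarbon receptor (28.2% of windows), and TGANTCA, the AP-1 element (6.75%), were not in the 3 windows on either strand. The Cd36 window lies inside the annotated span of the gene, before an internal start. No exon of the annotation overlaps the 3 windows.

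Among the receptors followed here, the class A receptors Marco and Msr1 had the highest FPKM in every tumour library. Marco was at 594, 578 and 563 FPKM in cKO-labelled TAM, 1234, 1228 and 1202 in control TAM, and 279, 271, 267 and 265 in resident libraries. The groups did not overlap, and the cKO-labelled libraries lay between the other groups. Msr1 had the same order at lower levels, with 240, 258 and 256 FPKM in cKO-labelled TAM, 360, 353 and 351 in control TAM, and 122, 120, 133 and 125 in resident libraries. Marco ranked 41 to 43 from the top of all genes in control TAM, against 196 to 203 in resident libraries.

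Cd36 and Stab1 had the opposite pattern, high in the healthy pancreas and low in both tumour groups. Cd36 stood at 35.0, 38.4 and 39.0 FPKM in cKO-labelled TAM, 33.5, 31.3 and 31.2 in control TAM, and 343, 378, 398 and 386 in resident libraries. Stab1 stood at 14.3, 14.9 and 13.7 FPKM in cKO-labelled TAM, 15.9, 15.9 and 15.6 in control TAM, and 105, 98.3, 97.0 and 94.9 in resident libraries. Every resident library was far above every tumour library for these receptors, while the TAM groups lay next to each other. By rank from the top, Cd36 was 1820 to 2001 in cKO-labelled TAM, 2063 to 2202 in control TAM and 133 to 155 in resident libraries.

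Scarb1, the receptor for high-density lipoprotein, varied least. Its level was 61.4, 61.3 and 59.1 FPKM in cKO-labelled TAM, 58.4, 65.7 and 63.9 in control TAM, and 40.5, 36.5, 38.4 and 36.3 in resident libraries. The TAM groups overlapped, and both lay above the resident libraries.

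**Figure D1:**
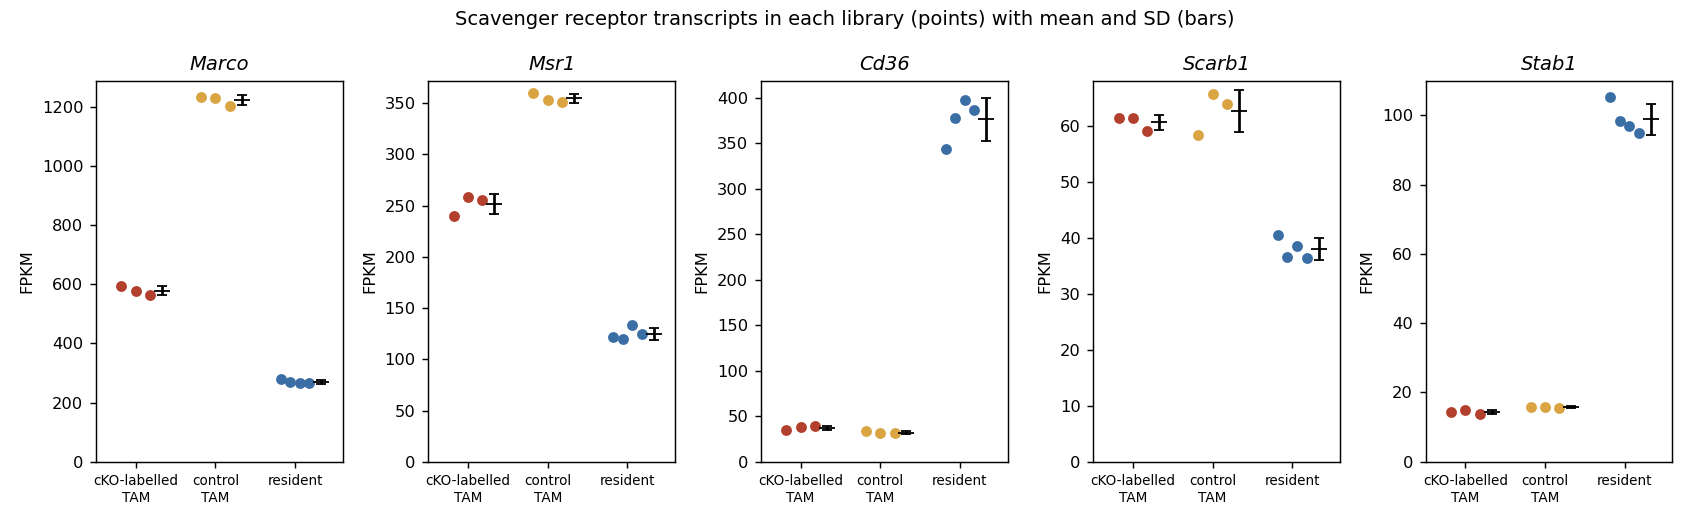
FPKM of each scavenger receptor gene (y axes, linear from 0, a scale per gene) in cKO-labelled TAM, control TAM and resident libraries; points are libraries, bars mean and SD. Marco and Msr1 were highest in control TAM (1221 and 355 FPKM on average), and Cd36 and Stab1 in resident libraries (376 and 98.9).

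Within a library the order of the 5 levels, in FPKM and hence per length, was the same in all libraries of a group. In the 3 cKO-labelled and the 3 control TAM libraries it ran from Marco through Msr1, Scarb1 and Cd36 to Stab1, and in the 4 resident libraries from Cd36 through Marco, Msr1 and Stab1 to Scarb1. No neighbours in these orders overlapped within a group. The order rests on the gene lengths the authors used, which matched the longest annotated transcript for most genes. For Msr1 and Scarb1 that transcript (3636 and 3093 bases) is much shorter than the summed exons (6344 and 8500 bases), so their level against the other genes depends on this choice.

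Summed over the 5 genes, the level was 942 ± 10.5 FPKM in cKO-labelled TAM, 1686 ± 19.7 in control TAM and 908 ± 18.5 in resident libraries. The make-up differed more than the sum. Class A transcripts made up 88.1% ± 0.194 of it in cKO-labelled TAM, 93.5% ± 0.182 in control TAM and 43.5% ± 1.01 in resident libraries. Cd36 supplied 3.98% ± 0.252 in cKO-labelled TAM, 1.90% ± 0.0633 in control TAM and 41.4% ± 1.91 in resident libraries. Ratios within a library do not depend on its scaling: there were 15.5 ± 1.33 Marco per Cd36 in cKO-labelled TAM, 38.2 ± 1.23 in control TAM and 0.721 ± 0.0635 in resident libraries.

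**Figure D2:**
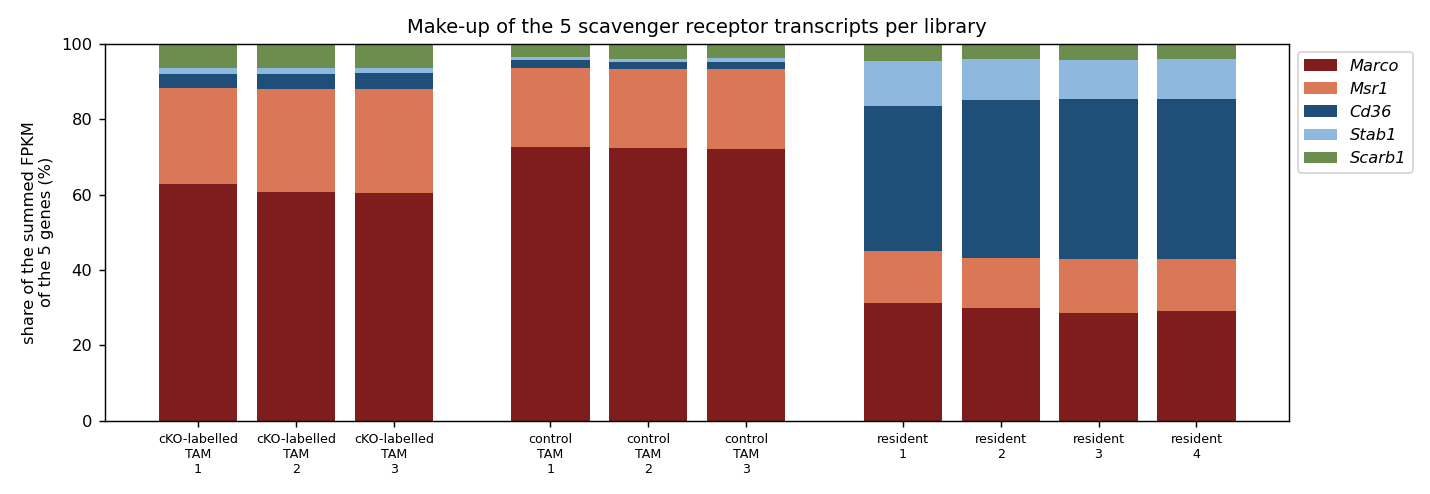
Share of the summed FPKM of the 5 genes (y axis, percent) taken by each receptor in each library (x axis, group and replicate). Marco and Msr1 fill 88.1% of the bar on average in cKO-labelled TAM, 93.5% in control TAM and 43.5% in resident libraries.

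The first comparison asked how tumour macrophages with the floxed but undeleted Ahr gene differ from those of the healthy pancreas. Marco, Msr1 and Scarb1 rose in control TAM and Cd36 and Stab1 fell (limma on log2(FPKM + 1), Benjamini-Hochberg adjusted p under 0.05), so that all 5 were called, and in all 5 the groups did not overlap. In this comparison 77.1% of the 11127 genes tested were called, 39% higher and 38.1% lower, and in 73.9% the groups did not overlap, so a call alone sets no gene apart. The sizes say more. Marco averaged 1221 ± 16.7 FPKM in control TAM and 270 ± 6.15 in resident libraries, a log2 change of 2.17 ± 0.03 (SE, adjusted p = 7.49e-19), which in absolute size was above 95.6% of genes. Msr1 averaged 355 ± 4.41 FPKM in control TAM and 125 ± 5.86 in resident libraries, a log2 change of 1.50 ± 0.04 (adjusted p = 3.26e-15). For Cd36, 32.0 ± 1.28 FPKM in control TAM against 376 ± 23.5 in resident libraries gave a log2 change of -3.51 ± 0.05 (adjusted p = 2.95e-18), above 98.6% of genes in size. Stab1 fell to 15.8 ± 0.160 FPKM in control TAM, against 98.9 ± 4.50 in resident libraries (log2 change -2.57 ± 0.04, adjusted p = 2.55e-17). Scarb1 rose least, with 62.7 ± 3.78 FPKM in control TAM and 37.9 ± 1.95 in resident libraries (log2 change 0.71 ± 0.05, adjusted p = 1.17e-09). When FPKM were rescaled so that all libraries had the same sum, the median change of the genes tested stood at 0.185 and 66.2% of calls were higher, against 50.6% before. The 5 directions held under that scaling.

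The second comparison asked what differs in tumour macrophages labelled as Ahr knockouts. Marco and Msr1 fell in cKO-labelled TAM, Cd36 rose slightly, and Scarb1 was not called. Here 39.6% of genes were called, 20.5% higher and 19.1% lower, and in 51.4% the groups did not overlap. Of the receptors 4 were called, and the groups did not overlap in these 4. With the libraries set to the same sum, 32.8% of calls were higher, against 51.8% before. Marco was at 579 ± 15.6 FPKM in cKO-labelled TAM and 1221 ± 16.7 in control TAM, a log2 change of -1.08 ± 0.03 (adjusted p = 2.16e-13), larger in size than in 99.0% of tested genes. For Msr1 the means were 251 ± 9.72 FPKM in cKO-labelled TAM and 355 ± 4.41 in control TAM, a log2 change of -0.50 ± 0.04 (adjusted p = 1.53e-07), larger than in 93.6% of genes. The class A genes did not move in proportion: the ratio of Marco to Msr1 was 2.20 to 2.47 in cKO-labelled TAM and 3.42 to 3.48 in control TAM, against 2.003 to 2.292 in resident libraries. Per unit of Adgre1, Marco was at 1.16 ± 0.0279 in cKO-labelled TAM and 2.07 ± 0.0216 in control TAM, and Msr1 at 0.506 ± 0.0199 in cKO-labelled TAM and 0.601 ± 0.00460 in control TAM. Both ratios were lower in every cKO-labelled library than in any control TAM library. Per Adgre1 the other 3 receptors were higher in every cKO-labelled library: Stab1 was at 0.0281 to 0.0294 in cKO-labelled TAM and 0.0266 to 0.0270 in control TAM, the opposite direction to its FPKM. Scarb1 was at 0.121 to 0.123 in cKO-labelled TAM and 0.0985 to 0.112 in control TAM, and Cd36 at 0.0704 to 0.0797 in cKO-labelled TAM and 0.0532 to 0.0565 in control TAM. Adgre1 itself was lower in cKO-labelled than in control TAM, with a limma log2 change of -0.25 (adjusted p = 5.36e-06).

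The remaining receptors changed little between the TAM groups. Cd36 averaged 37.5 ± 2.17 FPKM in cKO-labelled TAM and 32.0 ± 1.28 in control TAM (log2 change 0.22 ± 0.05, adjusted p = 0.00482), with no overlap of the groups, but the call was lost when libraries were rescaled to a common total (log2 change 0.14, adjusted p = 0.0584). Stab1 averaged 14.3 ± 0.557 FPKM in cKO-labelled TAM and 15.8 ± 0.160 in control TAM, a log2 change of -0.14 ± 0.05 that passed only narrowly (adjusted p = 0.0318). That call was lost without cKO-labelled TAM replicate 1 (adjusted p = 0.0647) or 3 (0.122), and without control TAM replicate 1 (0.0752), 2 (0.0702) or 3 (0.0513). It was also lost with only these groups in the fit (0.0521) and with no variance trend (0.0578). Scarb1 averaged 60.6 ± 1.31 FPKM in cKO-labelled TAM and 62.7 ± 3.78 in control TAM. The 95% interval of its log2 change, -0.15 to 0.06, holds 0 but also falls of up to that size, and the adjusted p was 0.50.

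Set against resident libraries, the cKO-labelled libraries had all 5 genes called, as had 77.4% of genes, 40.2% higher and 37.2% lower, and no overlap of groups in these 5, as in 75.5% of genes. This comparison shares its libraries with the other comparisons, so its values are given side by side only. The log2 change was 1.10 ± 0.03 for Marco, 1.00 ± 0.04 for Msr1, 0.66 ± 0.05 for Scarb1, -3.29 ± 0.05 for Cd36 and -2.71 ± 0.04 for Stab1. In control TAM against resident libraries the changes were 2.17, 1.50, 0.71, -3.51 and -2.57 for these genes.

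**Figure D3:**
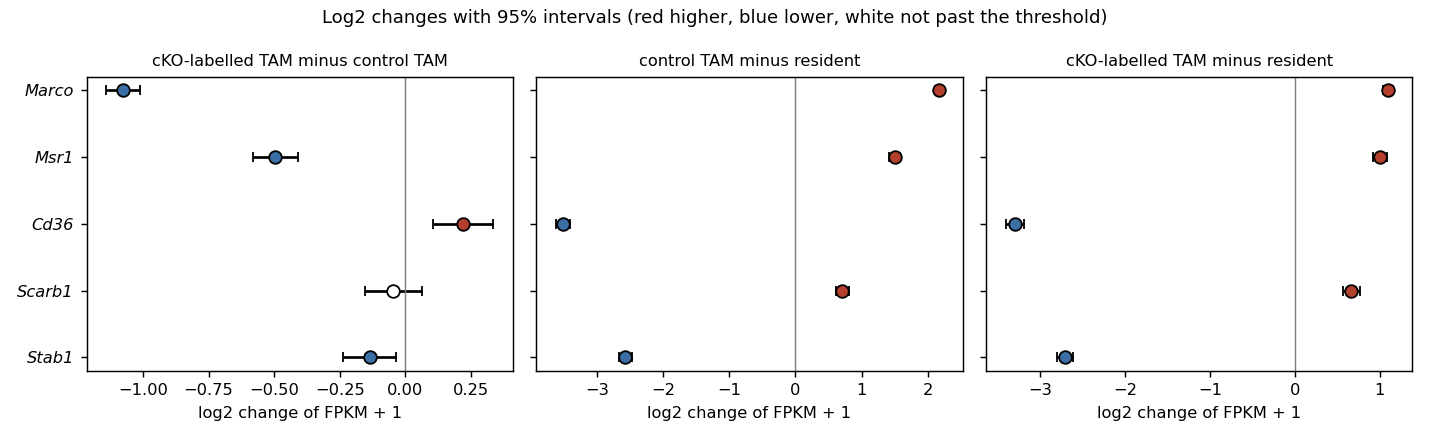
Log2 change of FPKM + 1 (x axes, a scale per panel) with its 95% interval for each receptor in the 3 comparisons; red is higher, blue lower and white not past the threshold. Marco lies at -1.08 in cKO-labelled against control TAM and at 2.17 in control TAM against resident libraries.

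Of 24 other genes listed for the scavenger receptor superfamily, 18 were in the table and 14 passed the filter on low values. In control TAM against resident libraries 9 rose and 3 fell, where 39% of all genes tested rose and 38.1% fell. The median log2 change of the 14 was 0.78, beside 0.00175 over all genes tested. Olr1, the lectin-type receptor for oxidised lipoprotein, rose to 28.9 ± 0.769 FPKM in control TAM, against 0.435 ± 0.157 in resident libraries. Cd5l, a secreted protein of the same cysteine-rich family as the Marco head domain, averaged 428 ± 6.60 FPKM in control TAM and 139 ± 3.42 in resident libraries. Clec7a, the beta-glucan receptor dectin-1, averaged 213 ± 13.6 FPKM in control TAM and 78.3 ± 3.62 in resident libraries. The falls were those of Cd163, the haptoglobin-haemoglobin receptor (11.6 ± 1.40 FPKM in control TAM and 345 ± 5.33 in resident libraries), the mannose receptor Mrc1 (25.5 ± 0.953 in control TAM and 199 ± 11.2 in resident libraries), and Colec12, a class A member with a lectin domain (6.02 ± 0.530 in control TAM and 62.2 ± 2.89 in resident libraries). Scara3, Cd44, Scarf1, Scarb2, Scarf2 and Cd68 rose, with log2 changes from 0.14 for Cd68 to 2.53 for Scara3. Lrp1 and Cxcl16 were not called (adjusted p = 0.938 and 0.742), but were called higher when libraries were rescaled.

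In cKO-labelled against control TAM, 7 of the 14 fell and 2 rose, where 19.1% of all genes fell and 20.5% rose. The median log2 change of the 14 was -0.17, beside 0.0125 over all genes. Colec12 fell most, to 3.64 ± 0.316 FPKM in cKO-labelled TAM, against 6.02 ± 0.530 in control TAM (log2 change -0.60, adjusted p = 6.65e-06). Cd44, the hyaluronan receptor, averaged 39.8 ± 2.06 FPKM in cKO-labelled TAM and 55.0 ± 1.66 in control TAM, and Olr1 21.5 ± 1.05 in cKO-labelled TAM and 28.9 ± 0.769 in control TAM. Lrp1, Scarf2, the lysosomal receptor Scarb2 and Cd5l were the others that fell, with log2 changes of -0.37, -0.33, -0.32 and -0.27. Mrc1 rose to 32.5 ± 1.34 FPKM in cKO-labelled TAM, against 25.5 ± 0.953 in control TAM (log2 change 0.34, adjusted p = 6.68e-05), and Cxcl16, which binds oxidised lipoprotein as well as acting as a chemokine, to 120 ± 1.07 in cKO-labelled TAM, against 104 ± 1.99 in control TAM. Cd163, Clec7a, Scara3, Scarf1 and Cd68 were not called, though Cd68 was called higher under quantile normalization. Over the alternatives 2 to 3 of the list rose and 6 to 7 fell, with 3 rises also without control TAM replicate 1. In cKO-labelled TAM against resident libraries 10 rose and 4 fell, where 40.2% of all genes rose and 37.2% fell. Scara5, Stab2, Cd6 and Lrp2 did not pass the filter, and their group means ran from 0.0903 FPKM for Lrp2 to 1.02 for Scara5, both in resident libraries.

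**Figure D4:**
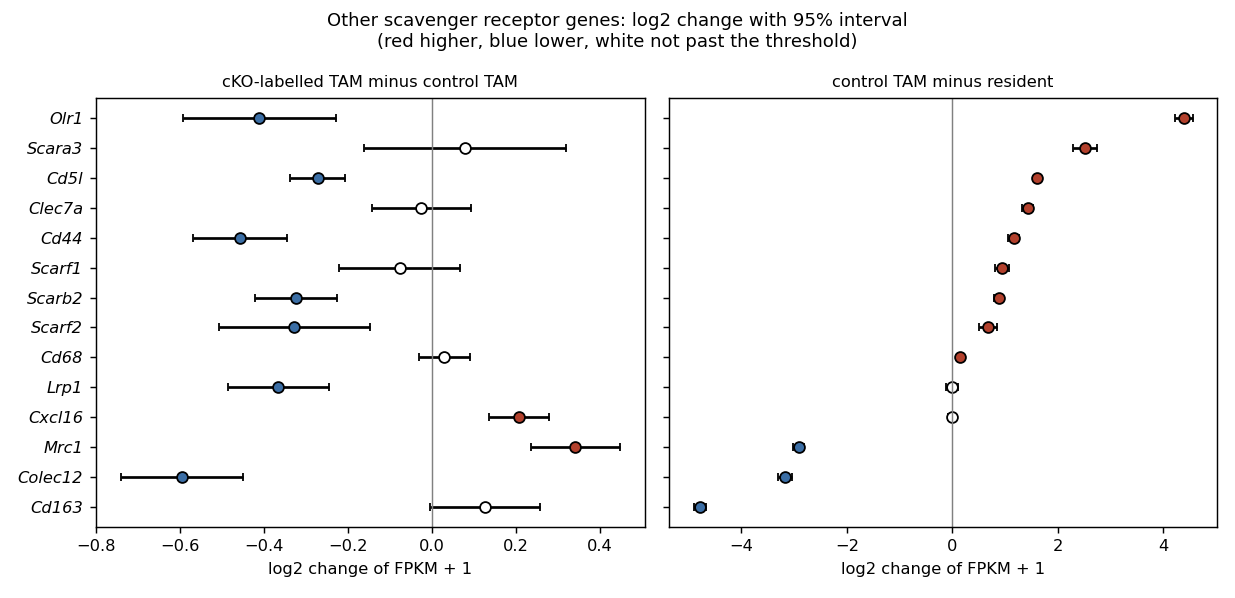
Log2 change of FPKM + 1 (x axes, a scale per panel) with its 95% interval for the 14 other scavenger receptor genes tested; red is higher, blue lower and white not past the threshold. Olr1 lies at -0.41 and 4.39, and Cd163 at 0.13 and -4.79, in cKO-labelled against control TAM and in control TAM against resident libraries.

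Lipoprotein handling genes process what these receptors take in or carry lipid out. Of 17 tested, 8 rose and 5 fell in control TAM against resident libraries, a share called close to the 77.1% of all genes. Fabp5, a fatty acid chaperone, rose (23.8 ± 0.619 FPKM in control TAM and 1.77 ± 0.289 in resident libraries), as did the caveolin gene Cav1 (23.2 ± 0.988 in control TAM and 1.63 ± 0.200 in resident libraries). Apoe, the apolipoprotein that loads effluxed cholesterol, fell (6454 ± 206 in control TAM and 26283 ± 1139 in resident libraries), as did Pltp, the phospholipid transfer protein (206 ± 4.07 in control TAM and 1398 ± 40.7 in resident libraries). In cKO-labelled against control TAM 4 rose and 7 fell, where 20.5% of all genes rose and 19.1% fell. Pltp rose to 623 ± 8.70 FPKM in cKO-labelled TAM, against 206 ± 4.07 in control TAM (log2 change 1.59, adjusted p = 2.17e-15), and Apoe to 14264 ± 455 in cKO-labelled TAM, against 6454 ± 206 in control TAM (1.14, adjusted p = 1.42e-12). Lpl, lipoprotein lipase, rose to 67.7 ± 1.45 FPKM in cKO-labelled TAM, against 36.9 ± 1.75 in control TAM, whereas Apoc1 fell to 4.99 ± 0.917 in cKO-labelled TAM, against 12.2 ± 0.199 in control TAM. In cKO-labelled TAM against resident libraries 6 rose and 7 fell, where 40.2% of all genes rose and 37.2% fell.

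Ligands and partners of the receptors were counted the same way, beside 77.1% of all genes called in control TAM against resident libraries and 39.6% in cKO-labelled against control TAM. Of 7 tested secreted and matrix ligands, 6 rose and 1 fell in control TAM against resident libraries. Thrombospondin-1, the Cd36 ligand encoded by Thbs1, averaged 226 ± 4.18 FPKM in control TAM and 25.0 ± 0.873 in resident libraries, and Sparc, cleared by stabilin-1, 60.3 ± 2.45 in control TAM and 8.97 ± 0.356 in resident libraries. In cKO-labelled against control TAM 4 ligands rose and 0 fell, among them Thbs1 at 295 ± 6.17 FPKM in cKO-labelled TAM and 226 ± 4.18 in control TAM (log2 change 0.38, adjusted p = 1.13e-06). At an unadjusted p under 0.05 the limma count of falls was 1, the calreticulin gene Calr. Of 6 tested stabilin-1 ligands and sorting adaptors, 2 rose and 4 fell in control TAM against resident libraries, and 1 fell in cKO-labelled against control TAM. The adaptor Gga3 averaged 8.10 ± 0.659 FPKM in control TAM and 14.8 ± 0.315 in resident libraries. Of the adaptors, Gga1, Gga2 and Snx17 lost their call against resident libraries when libraries were rescaled. Of 20 signalling partners of Cd36 and the class A receptors, 12 rose and 4 fell in control TAM against resident libraries, a share called near that of all genes. The rises were led by the tetraspanin gene Cd9 (505 ± 7.19 FPKM in control TAM and 48.2 ± 0.911 in resident libraries) and the Src-family kinase gene Fgr (116 ± 2.78 in control TAM and 25.3 ± 0.903 in resident libraries). Another tetraspanin gene, Cd81, was lower in control TAM (256 ± 9.11 FPKM) than in resident libraries (902 ± 34.7), as was the kinase gene Syk (36.6 ± 0.615 in control TAM and 70.1 ± 1.58 in resident libraries). Between cKO-labelled and control TAM 5 rose and 10 fell, with Fyn, another Src-family kinase, at 17.9 ± 0.988 FPKM in cKO-labelled TAM and 26.5 ± 0.0795 in control TAM.

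Markers of other cells differed between the groups in these sorted but bulk libraries, where fewer cells of a type and less RNA per cell cannot be told apart. Vascular endothelium expresses Cd36 and Scarb1. Its 11 listed genes in the table summed to 39.5 to 40.9 FPKM in cKO-labelled TAM, 14.0 to 15.4 in control TAM and 4.61 to 5.12 in resident libraries. None of the 11 was at 0 throughout a group, and the defining genes Cdh5, Cldn5 and Tek were not found among the genes in the table. Without Plvap the sums were 22.3 to 24.5 FPKM in cKO-labelled TAM, 13.6 to 14.1 in control TAM and 4.04 to 4.57 in resident libraries. Stab1 is shared with sinusoidal endothelium, whose 4 genes in the table summed to 303 to 314 FPKM in cKO-labelled TAM, 248 to 256 in control TAM and 249 to 268 in resident libraries. Fcgr2b, an Fc receptor gene that macrophages also express, made up 99.4% of this sum in cKO-labelled TAM, 99.1% in control TAM and 99.9% in resident libraries. The other 3 genes (Stab2, Oit3 and Flt4) summed to 1.79 to 2.13 FPKM in cKO-labelled TAM, 2.08 to 2.58 in control TAM and 0.230 to 0.466 in resident libraries. Of 6 vascular genes tested, 5 rose and 1 fell in cKO-labelled against control TAM, where 20.5% of all genes rose and 19.1% fell. Plvap was at 16.6 ± 1.12 FPKM in cKO-labelled TAM and 0.863 ± 0.402 in control TAM. Adipocytes also express Cd36, and the 5 adipocyte genes in the table summed to 2.26 to 2.34 FPKM in cKO-labelled TAM, 4.00 to 4.08 in control TAM and 27.9 to 30.9 in resident libraries. Car3 made up most of the resident sum. The part of endothelial cells and adipocytes in the Cd36, Scarb1 and Stab1 values was not tested. Large peritoneal macrophages carry Marco and Msr1: their 13 listed genes summed to 4706 to 4815 FPKM in cKO-labelled TAM, 5063 to 5084 in control TAM and 1359 to 1402 in resident libraries. Without Saa3, the gene with the highest mean, the sums were 2662 to 2671, 2860 to 2910 and 1139 to 1194 FPKM in these groups. In control TAM against resident libraries 10 of the 13 rose and 3 fell (Cxcl13, Timd4 and Vsig4), where 39% of all genes rose and 38.1% fell. In cKO-labelled against control TAM 8 of the 13 fell and 1 rose, where 19.1% of all genes fell and 20.5% rose. The defining factor Gata6 averaged 9.78 ± 0.626 FPKM in cKO-labelled TAM, 15.6 ± 0.549 in control TAM and 1.32 ± 0.148 in resident libraries. The part of large peritoneal macrophages in the Marco and Msr1 values was not tested, nor was the cell source of Gata6.

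Lists of further cell types differed too. The 14 acinar genes summed to 357 to 375 FPKM in cKO-labelled TAM, 87.5 to 95.4 in control TAM and 29380.0 to 31210.0 in resident libraries, with Amy2a5 at 0 throughout control TAM. B cell genes (4 in the table) summed to 238.5 to 241.9 FPKM in cKO-labelled TAM, 85.5 to 94.5 in control TAM and 888 to 906 in resident libraries, and dendritic cell genes (7) to 79.9 to 85.7 in cKO-labelled TAM, 33.6 to 39.6 in control TAM and 185 to 197 in resident libraries. These 3 lists, like Cd36 and Stab1, were highest in resident libraries. Neutrophil genes (10) summed to 1630.0 to 1792 FPKM in cKO-labelled TAM, 1291 to 1318 in control TAM and 359.5 to 368.8 in resident libraries. Without Retnlg, the gene with the highest mean, they summed to 291.8 to 301.0 FPKM in cKO-labelled TAM, 138.3 to 149.1 in control TAM and 358.9 to 368.6 in resident libraries. Most of this resident sum was Mmp9, at 329 ± 3.73 FPKM there, 123 ± 4.28 in cKO-labelled TAM and 41.5 ± 0.324 in control TAM. Of the 10 neutrophil genes, 8 rose and 1 fell in control TAM against resident libraries, where 39% of all genes rose and 38.1% fell. Eosinophil genes (5) summed to 132 to 133 in cKO-labelled TAM, 88.7 to 91.7 in control TAM and 45.7 to 59.5 in resident libraries, but 98.3% of the resident sum was Ear2. Without Ear2 they summed to 102.6 to 105.7 FPKM in cKO-labelled TAM, 73.69 to 77.1 in control TAM and 0.6415 to 1.224 in resident libraries. Monocyte genes (10) summed to 1287 to 1344 FPKM in cKO-labelled TAM, 1350.0 to 1370.0 in control TAM and 1328 to 1443 in resident libraries, but 90.9% of the resident sum was F13a1. Of the 10, 9 rose and 1 fell in control TAM against resident libraries, and without F13a1 they summed to 1155 to 1215 FPKM in cKO-labelled TAM, 1248 to 1268 in control TAM and 119.8 to 132.6 in resident libraries. Epithelial genes (11) summed to 304 to 317 FPKM in cKO-labelled TAM, 302 to 311 in control TAM and 10.5 to 12 in resident libraries, fibroblast genes (10) to 132 to 137 in cKO-labelled TAM, 175 to 178 in control TAM and 42.1 to 45.8 in resident libraries. Platelet genes (4) summed to 5.78 to 6.94 FPKM in cKO-labelled TAM, 2.36 to 4.27 in control TAM and 4.72 to 5.96 in resident libraries. Macrophage identity genes (13) summed to 25010.0 to 25410.0 FPKM in cKO-labelled TAM, 31820.0 to 32000.0 in control TAM and 47230.0 to 48340.0 in resident libraries. In cKO-labelled against control TAM 4 of the 13 rose and 7 fell, where 20.5% of all genes rose and 19.1% fell. Lyz2, the locus that carries Cre, averaged 11460.0 FPKM in cKO-labelled TAM, 19904 in control TAM and 28140.0 in resident libraries. Without Lyz2 the order of the TAM groups turned round, with sums of 13500.0 to 13810.0 FPKM in cKO-labelled TAM, 11890.0 to 12190.0 in control TAM and 19450.0 to 20660.0 in resident libraries, and C1qa, C1qb and C1qc were among the genes that rose in cKO-labelled TAM. The part of these lists in the values of the 5 receptors was not tested.

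Genes that varied most like each receptor over the 10 libraries were sought among 6979 others with a mean of at least 5 FPKM. Likeness was the root mean square difference of the log2(FPKM + 1) profiles, each centred on its own mean. Closest to Marco were Ndrg1 (0.114), Plxdc2 (0.144) and Htra3 (0.166), and closest to Msr1 Gbp3 (0.0488), P4hb (0.0605) and Serpinb1a (0.0701). Ndrg1 averaged 15.9 ± 0.685 FPKM in cKO-labelled TAM, 29.3 ± 0.788 in control TAM and 6.72 ± 0.476 in resident libraries. For Cd36 they were F13a1 (0.0860), Abca9 (0.105) and Slc40a1 (0.110), for Stab1 Ctsf (0.0730), Engase (0.110) and Cxcl13 (0.112), and for Scarb1 Prdx2 (0.0327) and Furin (0.0418). F13a1 averaged 132 ± 2.29 FPKM in cKO-labelled TAM, 100.5 ± 3.60 in control TAM and 1267 ± 42.8 in resident libraries. Among the receptors themselves Marco and Msr1 differed by 0.300 and Cd36 and Stab1 by 0.411, while Marco and Cd36 differed by 2.52.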

How the data were processed

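The series is 10 RNA-seq libraries in 1 table of FPKM, deposited by the authors with 1 column per library and matched to samples by title, with 0 columns left unused. Per the submitters' processing notes STAR and edgeR were used with the builds mm10 and GRCm38, and neither role nor version is stated. Per the labels' protocols RNA was amplified with SMART-Seq v4 and made into Nextera XT libraries. The sources used here state neither gene lengths nor library scaling.

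Of 12535 genes, 316 had no symbol, and 312 of these were named by identifier. Steps of the low FPKM gave whole reads within 0.05 for 85.9% to 87.3% of values up to 200 reads, using the longest GENCODE M21 transcript, which gives the recovered depth. By that scale the receptors had 1078 to 34752 reads per library, so counting error alone is at most 3.05%. The median squared difference between same-group libraries was 1.77 to 2.97 times that of counting noise alone. The median coefficient of variation of genes at 10 to 1000 FPKM was 3.71% in cKO-labelled TAM, 3.95% in control TAM and 4.6% in resident libraries. Sample titles number the replicates without naming animals, so separate animals cannot be told from pooled or technical replicates. The libraries were counted as separate replicates, and every SE and p-value rests on that.

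The 11127 genes that reached 1 FPKM in 3 or more libraries were fitted on log2(FPKM + 1) with limma 3.58.1 in R 4.3.3, with 3 group means, a variance trend and Benjamini-Hochberg adjustment over all genes at 0.05. The pseudocount understates changes of low genes. Values are mean ± SD (n = 3, 3 and 4 for cKO-labelled TAM, control TAM and resident), and ± beside a log2 change is its SE. The fit and the depth step were tested on simulated data.

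The members and lists were chosen with earlier results of these data known. Named are the 5 members, tested genes of the superfamily list, the leading called genes of the other lists, the abundant markers, the 3 most alike genes per member, Ahr and Lyz2. Part of these is printed, picked with values seen, and a few are not reported here. Plvap, Gata6, Timd4, Vsig4 and Nt5dc2 were added after their values were seen, as were marker sums without a list's most abundant gene. As alternatives the fit was repeated with a pseudocount of 0.1 or 0.5, without the filter, with a filter raised to 5 FPKM, under 3 other scalings, with the groups compared alone, without the variance trend, with a replicate block and without each library in turn.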

Additional observations from a re-analysis of the deposited data

How the results depend on the processing

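Each log2 change of the 5 receptors in the 3 comparisons was recomputed under 20 alternatives, 300 values in all, of which 292 kept their direction and side of the threshold, 8 lost significance and 0 reversed. All 8 were in cKO-labelled against control TAM, 7 of them for Stab1, and the cause was not tested. Cd36 was at 0.1427 (adjusted p = 0.0584) when rescaled to a common total, and over its alternatives adjusted p ran from 0.00119 to 0.0584. Stab1 was at -0.1367 with only the 2 groups compared (adjusted p = 0.0521) and with no variance trend (0.0578), and ran from -0.1631 to -0.1106 when 1 library was left out. Over all its alternatives its adjusted p ran from 0.00141 to 0.122. Marco ran from -1.19 to -1.06 and Msr1 from -0.57 to -0.46 there, and in control TAM against resident Marco ran from 2.15 to 2.38 and Cd36 from -3.56 to -3.30. Of 240 counts of called genes 239 stayed within 1.5 times. The other was genes called higher in cKO-labelled against control TAM, 1501 when rescaled to a common total, against 2283 in the fit as reported and 1712 or more under the other alternatives. The share of calls that were higher was 32.8% when rescaled, against 51.8%. The median log2 change of all genes was -0.0543 there, against 0.0125. Same-numbered cKO-labelled and control TAM libraries had correlations of deviations of 0.00417, -0.0442 and 0.0884. Those of different numbers ran from -0.133 to 0.122. With so few libraries this cannot exclude a pairing, and the fit as reported used none. With the replicate block Stab1 stayed at -0.1367 (adjusted p = 0.0344), and 2258 genes were called higher and 2084 lower. Depth limits little here, as each receptor had over 1000 reads in every library.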

Other observations

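Of 19 tested transcription factors known to act on scavenger receptor genes, 7 rose and 8 fell in control TAM against resident libraries, close to the 39% of all genes that rose and 38.1% that fell, with a median log2 change of -0.07 beside 0.00175 over all genes. Junb and Jun, subunits of AP-1, averaged 784 ± 14.2 and 152 ± 2.10 FPKM in control TAM and 371 ± 19.7 and 77.0 ± 2.64 in resident libraries. Maf, a factor of tissue macrophages, averaged 4.57 ± 0.0549 FPKM in control TAM and 14.7 ± 0.493 in resident libraries, and Cebpa 14.2 ± 1.02 in control TAM and 27.9 ± 1.85 in resident libraries.

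In cKO-labelled against control TAM 4 of the 19 rose and 6 fell, where 20.5% of all genes rose and 19.1% fell. Pparg, the nuclear receptor known to induce Cd36, averaged 11.3 ± 0.127 FPKM in cKO-labelled TAM and 8.90 ± 0.635 in control TAM (limma log2 change 0.31, adjusted p = 0.00146). In resident libraries Pparg averaged 9.54 ± 0.589 FPKM, and its part in the Cd36 levels was not tested. Stat6, which relays interleukin-4 signals, averaged 96.7 ± 1.97 FPKM in cKO-labelled TAM and 119 ± 2.06 in control TAM. Spi1, which encodes PU.1, averaged 351 ± 8.20 FPKM in cKO-labelled TAM, 302 ± 5.12 in control TAM and 259 ± 12.1 in resident libraries. The part of PU.1 in the levels of the receptors was not tested. In cKO-labelled TAM against resident libraries 8 rose and 9 fell, where 40.2% of all genes rose and 37.2% fell.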
